A study of Mus musculus with 2 samples.

Results

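Autophagy and mitophagy genes were described in the muscle of young mice through 10 genes, namely Sqstm1, Map1lc3a, Map1lc3b, Gabarapl1, Bnip3, Bnip3l, Ulk1, Becn1, Ctsl and Tfeb. They were chosen by symbol, each symbol matched 1 gene, and they make up 10 of 55536 annotated genes in the deposited gene tables. Total RNA had been sequenced from gastrocnemius, a muscle of the calf, of male mice aged 10 days of the hybrid strain B6CASTF1/J. The labels give 1 group of 2 biological replicates, each made from 300 ng of RNA with ERCC spike-in RNAs added. The animals carry different numbers but share a donor code in the labels, so how far apart they are as individuals is not given. No second condition was labelled, so no gene was tested, and the comparison available is between the libraries of replicate 1 and replicate 2. Since this is bulk tissue, fewer cells of a type and less RNA per cell cannot be told apart.

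Autophagy delivers cytoplasm, protein aggregates and organelles to the lysosome. The Ulk1 kinase complex and a lipid kinase complex around Becn1 start a membrane sheet. Small proteins of the Atg8 family (Map1lc3a, Map1lc3b, Gabarapl1) are joined to its lipids and hold receptors such as Sqstm1 and, on mitochondria, Bnip3 and Bnip3l, together with their cargo. The closed vesicle fuses with a lysosome, where proteases such as Ctsl break the cargo down, and the transcription factor Tfeb switches on lysosomal and autophagy genes. In skeletal muscle the pathway is known for keeping mitochondria and protein turnover in order, and it rises in fasting and disuse.

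The depth was 38874862 expected counts in replicate 1 and 38160786 in replicate 2. Levels are TPM, the relative abundance scaled per length, from the deposited gene tables in the layout of RSEM, a program that estimates transcript levels, and are given as mean ± SD over 2 libraries. The floor that 3 counts set, for 1000 bases of effective length, was 0.0925 TPM (replicate 1) and 0.0924 TPM (replicate 2). The labelled tissue fitted its markers, with all 5 skeletal muscle fibre markers between 7723 and 24110 TPM. Summed levels of marker genes were 57.6 and 57.4 TPM for macrophages (6 genes), 133 and 140 TPM for endothelium (4 genes) and 2441 and 2206 TPM for fibroblasts (4 genes), replicate 1 first. Over 16199 genes the libraries differed by more than sampling noise, with a chi-square of 18.9 per degree of freedom, so they are not 1 library deposited under both labels.

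All 10 genes were well above the floor and above the median of the 11322 protein-coding genes that reached 1 TPM in both libraries. Their levels summed to 440 TPM in replicate 1 and to 464 TPM in replicate 2, or 452 ± 16.9 TPM. Their median was 41.7 ± 3.15 TPM, against 8.49 ± 0.255 TPM for the detected protein-coding genes, which is 4.91 times as high. Sqstm1 had the highest level of the 10 and Ulk1 the lowest. Between these ends the order was Map1lc3a, Bnip3l, Ctsl, Map1lc3b, Bnip3, Becn1, Tfeb and Gabarapl1. In 8 of 9 neighbouring pairs the libraries did not overlap, and in the pair of Bnip3l and Ctsl they did, with a mean difference of 0.23 TPM that was smaller than the SD of Ctsl of 1.65 TPM. The gap of 3.35 TPM between Bnip3 and Becn1 was also within the SD of Bnip3, 3.67 TPM. In the deposited table in the layout of kallisto, another such program, 3 of these 9 neighbouring pairs had the other order. There Becn1 (73.1 ± 0.490 TPM) stood above Bnip3 (39.0 ± 2.56 TPM), Map1lc3b (116 ± 5.74 TPM) above Ctsl (113 ± 3.32 TPM), and Ctsl above Bnip3l (68.0 ± 9.94 TPM).

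**Figure D1:**
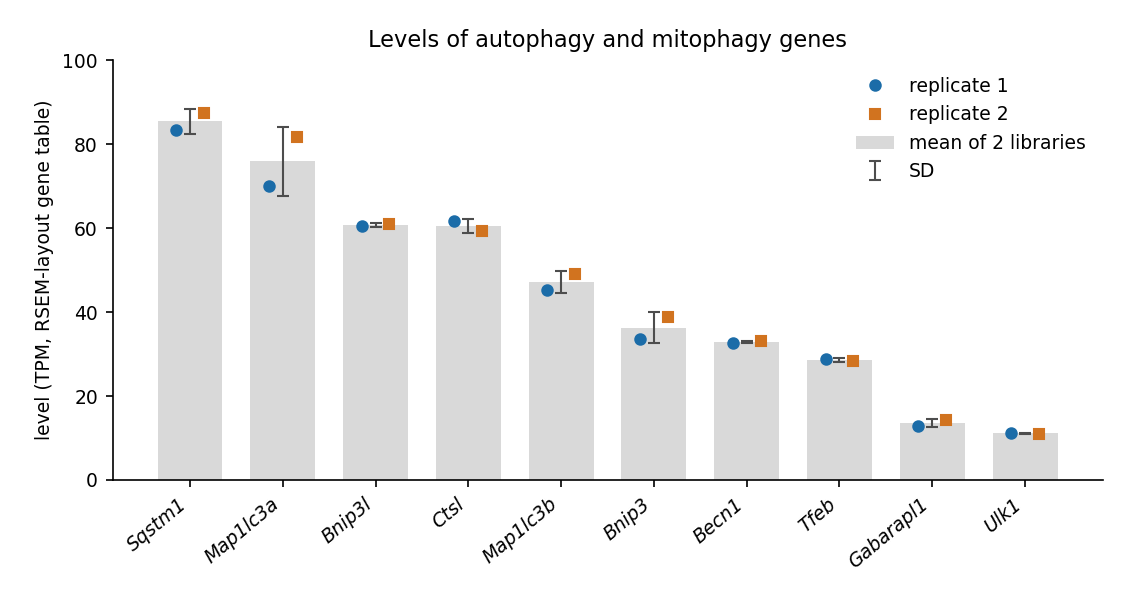
TPM of the 10 genes in the gene tables, ordered by mean level. Grey bars are means of 2 libraries, whiskers are SD, circles are replicate 1 and squares replicate 2; the libraries of Sqstm1 are at 83.3 and 87.5 TPM and those of Ulk1 at 11.1 and 11.0 TPM.

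Ulk1 and Becn1 act at the start of the pathway and were at unequal levels. Ulk1, the kinase that receives the starvation signal from mTORC1 and AMPK, had 11.1 TPM in replicate 1 against 11.0 TPM in replicate 2, or 11.1 ± 0.0707 TPM. It lies on chromosome 5 (mm10, 110784488 to 110810097, minus strand) and its 1560 and 1588 counts were whole numbers. The deposited credibility interval of Ulk1 ran over 11.1 to 13.8 TPM in replicate 1 and 11.0 to 13.5 TPM in replicate 2, so the point estimates sit at its lower edge. Becn1, the scaffold of the class III phosphatidylinositol 3-kinase, had 32.7 and 33.1 TPM, or 32.9 ± 0.255 TPM. Becn1 lies on chromosome 11 (101285952 to 101302286, minus strand) and overlaps Cntd1 on the other strand, which was at 0.06 and 0.08 TPM. Ulk1 was lower than its relative Ulk2, a kinase of overlapping function, with a log2 ratio of -0.86 in replicate 1 and -0.91 in replicate 2. The mean of -0.88 ± 0.0344, taken with a pseudocount of 0.1 TPM, makes Ulk2 1.84 times as high.

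The Atg8 genes were spread over a wide range. Map1lc3a, which encodes LC3A, had 70.1 and 81.7 TPM, replicate 1 first, or 75.9 ± 8.24 TPM, the largest SD of the 10. Map1lc3b, which encodes LC3B, the usual marker of autophagosomes, had 45.2 and 49.0 TPM, or 47.1 ± 2.63 TPM. Gabarapl1, of the GABARAP branch, had 12.9 and 14.3 TPM, or 13.6 ± 0.983 TPM. Each of them was higher in replicate 2. Their loci are on chromosome 2 (155276297 to 155278073, plus strand) for Map1lc3a, chromosome 8 (121590361 to 121598760, plus strand) for Map1lc3b and chromosome 6 (129533160 to 129542346, plus strand) for Gabarapl1. The log2 ratio of Map1lc3b over Map1lc3a was -0.68 ± 0.0763 and that of Gabarapl1 over Map1lc3b was -1.79 ± 0.0233. In the kallisto-layout table the first of these ratios was -0.04 ± 0.0253, so the gap between LC3B and LC3A was nearly absent there, and the second was -2.40 ± 0.0267, a wider gap. Gabarap, the other main member of its branch, was higher than all 3 in each library, at 82.8 and 82.9 TPM, and Gabarapl2 had 34.6 and 35.5 TPM.

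Sqstm1, which encodes the ubiquitin-binding receptor p62, was the highest of the 10. Its level was 83.3 TPM for replicate 1 and 87.5 TPM for replicate 2, or 85.4 ± 2.94 TPM, above 97.0% of annotated protein-coding genes. Its 4979 and 5482 counts were the most of any of the 10, and none of its sequence was shared with another gene at a word length of 31 bases. The gene lies on chromosome 11 (50199366 to 50210827, minus strand) and overlaps Mrnip on the other strand over 750 bases. Mrnip was at 2.67 and 2.82 TPM. No source used here states if reads were counted by strand, so reads in such overlaps are uncertain.

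Bnip3 and Bnip3l encode related receptors in the outer mitochondrial membrane that bind Atg8 proteins without a need for Parkin. Bnip3l, also called Nix, had 60.4 TPM (replicate 1) and 61.0 TPM (replicate 2), or 60.7 ± 0.382 TPM. Bnip3 had 33.7 and 38.8 TPM, or 36.2 ± 3.67 TPM, so it was lower in both libraries. The log2 ratio of Bnip3 over Bnip3l was -0.84 and -0.65, with a mean of -0.75 ± 0.137. In the kallisto-layout table it was -0.79 ± 0.305. Bnip3 lies on chromosome 7 (138890836 to 138909519, minus strand) and Bnip3l on chromosome 14 (66985239 to 67008877, minus strand). Bnip3l is also known from the clearing of mitochondria in maturing red blood cells. Of markers of red blood cells, Hba-a1 had 412 and 719 TPM and Alas2 had 5.42 and 8.87 TPM, while Slc4a1 was at 0.91 and 0.79 TPM. The part of red blood cells in the level of Bnip3l was not tested.

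Ctsl, which encodes the lysosomal cysteine protease cathepsin L, reached 61.7 TPM in replicate 1 and 59.3 TPM in the other library, or 60.5 ± 1.65 TPM. It was lower than both other main cathepsins in each library. The log2 ratio was -0.59 ± 0.0392 for Ctsl over Ctsb, a second cysteine protease, and -0.86 ± 0.0735 for Ctsl over Ctsd, an aspartic protease. Ctsl lies on chromosome 13 (64359337 to 64370890, minus strand). Macrophages are rich in cathepsins, and each of their 6 markers was between 1.69 and 17.9 TPM. Their part in the level of Ctsl was not tested.

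Tfeb, for which replicate 1 had 28.9 TPM and replicate 2 had 28.3 TPM, averaged 28.6 ± 0.438 TPM. Among the factors of its family, Tfe3 had 4.48 and 4.65 TPM, Mitf 2.31 and 2.94 TPM and Tfec 0.18 and 0.30 TPM. The log2 ratio of Tfeb over Tfe3, the next member of its family, was 2.62 ± 0.0592. With the pseudocount of 0.1 TPM in this ratio, Tfeb was 6.15 times as high. Tfeb lies on chromosome 17 (47737030 to 47792419, plus strand) and has 15 annotated transcripts that start at places far apart. The leading transcript was not the same in both libraries. Tfeb-202, which starts at the upstream end of the gene, held 41.7% of the level in replicate 1 and 52.4% in replicate 2. Tfeb-212, which starts 49125 bases further on and 435 bases after the start of Tfeb-201, held 44.5% and 40.9%. The 5 transcripts that start at or after the start of Tfeb-201 together held 50.4% and 43.4%. In the kallisto-layout table those 5 held 27.8% and 22.2%, and Tfeb-202 led in both libraries. Of the 31-base words of Tfeb-212, 1.78% occur in no other annotated transcript, so few reads could set it apart.

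The bases before these places of start are shown because the Tfeb transcripts divide between them, and those of Bnip3 and Ctsl because they are the windows that held CACGTG, the core of the element that Tfeb binds. All come from RefSeq on GRCm38.p6, where 9 windows of 250 bases before a start matched 7 of the 10 genes. Map1lc3a, Bnip3l and Becn1 had no entry. Capitals mark CACGTG.
Tfeb, chr17:47736787-47737036, plus strand, at the start of Tfeb-202: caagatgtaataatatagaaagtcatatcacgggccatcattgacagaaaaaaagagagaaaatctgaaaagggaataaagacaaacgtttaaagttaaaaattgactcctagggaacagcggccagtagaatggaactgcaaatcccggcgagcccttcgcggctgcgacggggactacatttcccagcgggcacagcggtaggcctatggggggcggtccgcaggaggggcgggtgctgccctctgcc
Tfeb, chr17:47785494-47785743, plus strand, at the start of Tfeb-201: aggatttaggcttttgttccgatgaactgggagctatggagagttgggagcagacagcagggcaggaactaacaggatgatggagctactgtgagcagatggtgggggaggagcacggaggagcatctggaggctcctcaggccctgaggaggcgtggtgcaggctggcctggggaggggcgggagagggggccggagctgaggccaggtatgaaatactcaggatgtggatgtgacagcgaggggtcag
Bnip3, chr7:138909507-138909756, minus strand: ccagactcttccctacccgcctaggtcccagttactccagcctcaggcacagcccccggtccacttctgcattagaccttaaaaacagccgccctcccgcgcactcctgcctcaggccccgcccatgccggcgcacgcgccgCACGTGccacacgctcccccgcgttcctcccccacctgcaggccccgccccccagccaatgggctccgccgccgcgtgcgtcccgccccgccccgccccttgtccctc
Ctsl, chr13:64370741-64370770, minus strand, the first 30 bases of its window: gcggcgttagaagcCACGTGctgatctaaa

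CACGTG, which reads the same on both strands, was in 2 of the 9 windows of these genes, or 22.2%, against 6.02% of all 32851 windows of that length. In Ctsl it spans positions 64370751 to 64370756, across the first base of Ctsl-203 at 64370753. The RSEM-layout table listed Ctsl-203 at 0, and the kallisto-layout table gave it 63.8 and 65.2 TPM. The window of Ctsl ends 214 bases before the start of Ctsl-201. The shorter word ACGTG, the core of the site of hypoxia-inducible factors, lies inside CACGTG; searched on both strands it was in the same 2 windows, against 16.6% of all windows. GTAAACA, a FoxO site, and TGACNNNGC, the core of the antioxidant response element, were searched on both strands and were in 0 of 9 windows, against 3.17% and 10.2% of all windows. A match is a description of the letters and no measurement of binding.

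Between the libraries the 10 genes differed by less than 1.5-fold. The ratio was taken as log2 of replicate 1 over replicate 2 on scaled counts, and it passed 1.5-fold for 0 of the 10 genes. The background was 1.71% of 10967 protein-coding genes whose mean count was at least 100. With the sign left aside, the median log2 ratio was 0.15 for the 10 genes, larger than the 0.11 for those 10967. Gabarapl1 had the largest difference, with 647 counts in replicate 1 and 790 in replicate 2 and a log2 ratio of -0.36 (95% counting interval -0.51 to -0.21), and 92.7% of those protein-coding genes differed by less. Map1lc3a followed at -0.29 (-0.38 to -0.20), then Bnip3 at -0.25 (-0.34 to -0.15), Sqstm1 at -0.21 (-0.26 to -0.15) and Map1lc3b at -0.20 (-0.28 to -0.12). The intervals of these genes, the receptors and Atg8 proteins among the 10 apart from Bnip3l, lay below 0. Such intervals cover counting error only, with 1 library on each side. For 35.7% of those 10967 genes the interval also left out 0.

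The other genes had smaller ratios. Tfeb was at -0.10 with an interval that ended just short of 0, Ulk1 at -0.10 and Ctsl at -0.08. Bnip3l was at 0.03 (-0.07 to 0.12). Becn1 was at 0.00 (-0.11 to 0.11), and its sign changed with the scaling. For Ulk1, Ctsl and Tfeb the TPM was slightly higher in replicate 1 although the scaled counts were slightly lower there. In all, and with Becn1 counted, 9 of the 10 genes were lower in replicate 1, against a background of 55.9% lower there, and 6 of 10 counting intervals left out 0, against 35.7%. The median log2 ratio was -0.15 for the 10 genes and -0.02 for those 10967 genes. Of the marker lists, 4 of 5 skeletal muscle fibre genes and 4 of 4 endothelial genes were also lower in replicate 1. The erythroid genes Hba-a1 (-0.81) and Alas2 (-0.68) were lower there past 1.5-fold, and 4 of 4 fibroblast genes were higher there. The macrophage, satellite cell and Schwann cell lists held genes of both directions. The part of these cell types in the ratios was not tested.

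**Figure D2:**
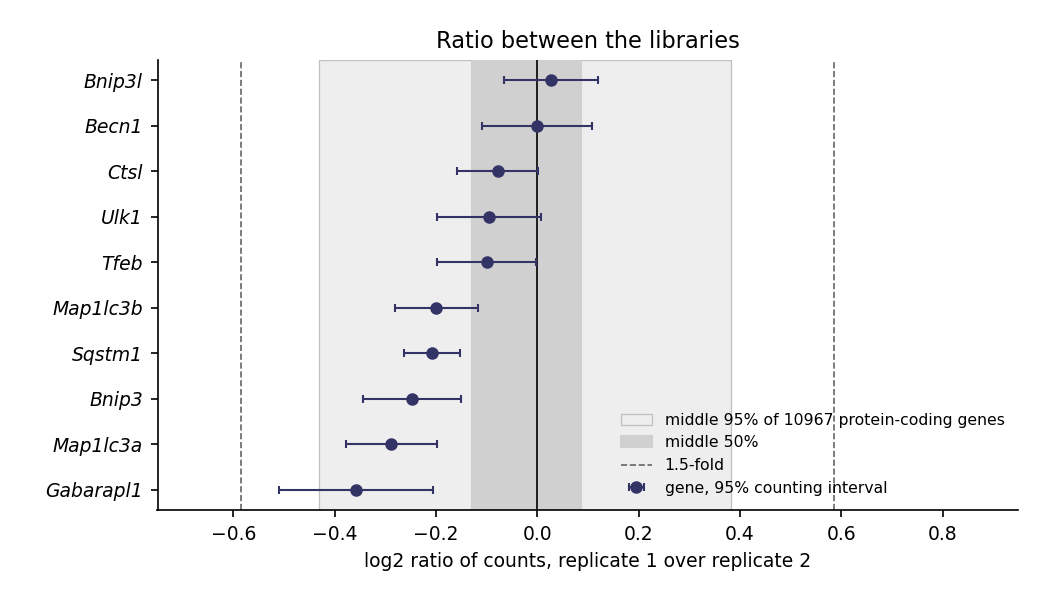
Log2 ratio of scaled counts, replicate 1 over replicate 2, with 95% counting intervals. Bands show the middle 50% (-0.13 to 0.09) and the middle 95% (-0.43 to 0.38) of 10967 protein-coding genes, and all 10 genes lie inside the wider band and inside the dashed lines at 1.5-fold.

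For 3 genes the transcript with the largest share was annotated as something other than protein coding. These were Map1lc3a, Bnip3l and Becn1. The background was 6.07% of 11322 protein-coding genes with 1 TPM in both libraries. The genes differed among themselves, as protein-coding transcripts held 100% of Gabarapl1, 99.2% ± 0.127 of Map1lc3b, 98.5% ± 0.679 of Bnip3, 97.8% ± 0.764 of Tfeb, 95.6% ± 2.92 of Sqstm1, 92.4% ± 0.361 of Ctsl and 84.8% ± 1.88 of Ulk1. The median over the 10 genes was 94.0%, against 93.6% over the detected protein-coding genes.

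In Bnip3l, protein-coding transcripts held 18.0% of the level in replicate 1 and 16.3% in replicate 2, or 17.1% ± 1.21. Bnip3l-205, a processed transcript of 789 bases, led with 44.8% and 38.4%. By counts, which are not scaled per length, the long coding transcripts of Bnip3l held 56.2% ± 0.933. The leading transcript by counts was the coding Bnip3l-202 with 1015 and 972 counts, against 606 and 524 for Bnip3l-205. The kallisto-layout table gave protein-coding transcripts 22.7% ± 3.05 and Bnip3l-205 the lead as well. Of the 31-base words of Bnip3l-205, 83.1% also occur in another gene, the pseudogene Bnip3l-ps. For the coding Bnip3l-202 and Bnip3l-201 that part was 27.4% and 28.5%. The part of shared reads in these shares was not tested.

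In Map1lc3a, the protein-coding Map1lc3a-201 held 36.9% and 35.5% of the level and the processed transcript Map1lc3a-203 held 56.5% and 64.5%. The kallisto-layout table gave Map1lc3a-201 89.9% ± 6.50 and Map1lc3a-203 10.1%. So the tables disagreed on which form of the LC3A gene led. Their first bases are shown because these are what tells the processed transcripts of Map1lc3a and Bnip3l from the other transcripts. Capitals mark the bases that precede the first 31-base word shared with another annotated transcript, and both are from GENCODE M21 on mm10.
Map1lc3a-203, chr2:155276889-155276986, plus strand: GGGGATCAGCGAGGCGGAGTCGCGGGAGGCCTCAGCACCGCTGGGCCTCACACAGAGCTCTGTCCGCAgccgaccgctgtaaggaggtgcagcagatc
Bnip3l-205, chr14:66989810-66989841, minus strand, first exon: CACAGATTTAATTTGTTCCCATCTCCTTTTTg
The private part is 68 bases of 826 in Map1lc3a-203 and 31 bases of 789 in Bnip3l-205.

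In Becn1, which has the most annotated transcripts of the 10 genes with 17, protein-coding transcripts held 14.6% in replicate 1 and 29.0% in replicate 2, or 21.8% ± 10.2. The SD was the largest of this share among the 10. Transcripts annotated for nonsense-mediated decay, a route that destroys RNAs with an early stop, held 53.1% and 48.2%, and retained-intron forms held 30.99% and 22.8%. Becn1-201, the leading form with 38.7% and 34.1%, has the annotation for decay. The kallisto-layout table gave protein-coding transcripts 27.1% ± 4.72 and put the retained-intron form Becn1-211 first with 30.8% ± 1.39. Of the 31-base words of Becn1-201, 2.58% are in no other transcript. Between the libraries the gene's level was steadier than its division, at 32.7 and 33.1 TPM. The kallisto-layout table gave the gene 73.5 and 72.8 TPM, so its level differed between the tables.

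**Figure D3:**
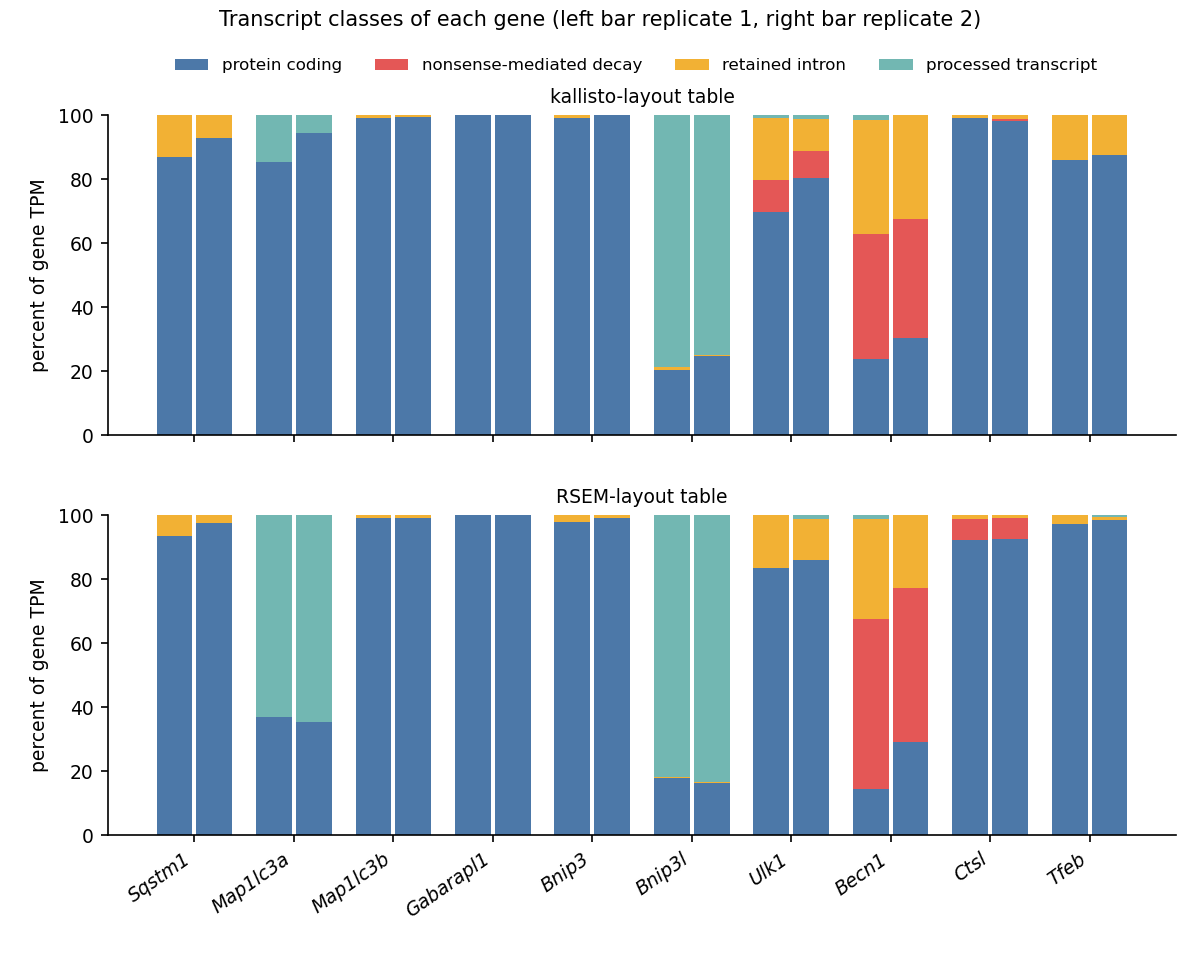
Share of each gene's TPM held by transcripts of 4 annotated classes, in percent, in the kallisto-layout table (top) and the RSEM-layout table (bottom). Each gene has a bar for replicate 1 (left) and for replicate 2 (right); in Bnip3l and Becn1 most of the level is outside the protein-coding class in both tables, and in Map1lc3a in the RSEM-layout table.

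The leading transcript was the same in both libraries for 9 of the 10 genes and differed for Tfeb, against a background of 10% of 11322 genes. It differed between the tables for 4 genes, Map1lc3a, Map1lc3b, Becn1 and Ctsl, against a background of 21.7% of 11292 genes. The leading share was highest for Gabarapl1-201 at 92.6% ± 8.53 and Sqstm1-202 at 90.4% ± 4.16. For Ctsl the kallisto-layout table put Ctsl-203 first with 57.0% ± 2.56, and the RSEM-layout table listed that transcript at 0 in both libraries and put Ctsl-201 first with 51.8% ± 2.35. Both are annotated as protein coding. For Map1lc3b the kallisto-layout table put Map1lc3b-203 of 775 bases first with 46.2% ± 1.51, and the RSEM-layout table Map1lc3b-201 of 2532 bases with 51.2% ± 0.841. Over the 10 genes the median leading share was 56.1%, against 70.6% over the detected protein-coding genes.

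Levels in the kallisto-layout table were higher for all 10 genes. The shift was general, with a median of 1.47-fold over 11507 protein-coding genes with 1 TPM in both tables. As deposited, 6 of the 10 genes passed 1.5-fold between the tables, against a background of 45.1%. Map1lc3b had 112 and 120 TPM in the kallisto-layout table and 45.2 and 49.0 TPM in the RSEM-layout table, a ratio of 2.46. Becn1 followed with a ratio of 2.22 and Ctsl with 1.87. Bnip3 and Bnip3l moved least, with ratios of 1.08 and 1.12.

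Which genes passed 1.5-fold beyond the general shift depended on how it was removed. With both tables rescaled to the same sum over the protein-coding genes they share, 1 of the 10 genes passed, against a background of 6.3%, and the median gene was left at -0.18 on the log2 scale. This was Bnip3 at -0.63, lower in the kallisto-layout table, with Bnip3l at -0.57 and Map1lc3b at 0.57 just short of the limit. With the tables centred on the median gene, 2 of the 10 passed, against a background of 6.6%. These were Map1lc3b at 0.74 and Becn1 at 0.60, both higher in the kallisto-layout table, while Bnip3 was at -0.45 and Bnip3l at -0.39. Map1lc3b, Bnip3 and Bnip3l are the members whose expected counts were not whole numbers within 0.01, against a background of 14.5% of 11322 genes. They are also the 3 of the 10 with the largest percent of 31-base words shared with other genes. The shared part was 23.7% for Bnip3l, 20.3% for Bnip3 and 7.77% for Map1lc3b, with Ctsl close at 7.68%.

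Of the 10 genes that share at least 100 of these words with a member of the set, 9 are pseudogenes. The other, D1Ertd622e, is protein coding and shares 1.41% of the words of Map1lc3b. It had 1105 and 645 counts in the RSEM-layout table, beside 2353 and 2574 for Map1lc3b. Bnip3l-ps, a transcribed pseudogene on chromosome 12, held the shared part of Bnip3l and had 33.4 and 29.99 TPM in the kallisto-layout table, and 1.96 and 1.80 TPM in the RSEM-layout table. Gm16439 on chromosome 14, which shares 17.7% of the words of Bnip3, had 12.0 and 11.6 TPM, and 6.44 and 5.97 TPM. Gm6055 on chromosome 14, which shares 4.19% of the words of Map1lc3b, was listed at 0 in the kallisto-layout table and had 12.0 and 15.2 TPM in the RSEM-layout table. By counts these 3 pseudogene copies were small beside the genes in the RSEM-layout table, with 35.5 and 34.3 for Bnip3l-ps, 97.1 and 90.1 for Gm16439 and 108 and 138 for Gm6055. In the kallisto-layout table Bnip3l-ps had 272 and 240 counts, beside 1707 and 1577 for Bnip3l. The part of shared reads in the differences between the tables was not tested, and levels of genes with such copies are uncertain. Map1lc3b also lies wholly inside the span of the protein-coding gene Gm20388 on the same strand, which had 1.23 and 0.35 TPM. Gm20388 is not among the genes that share at least 100 words with Map1lc3b. On the other strand Map1lc3b overlaps Zcchc14 over 58 bases.

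**Figure D4:**
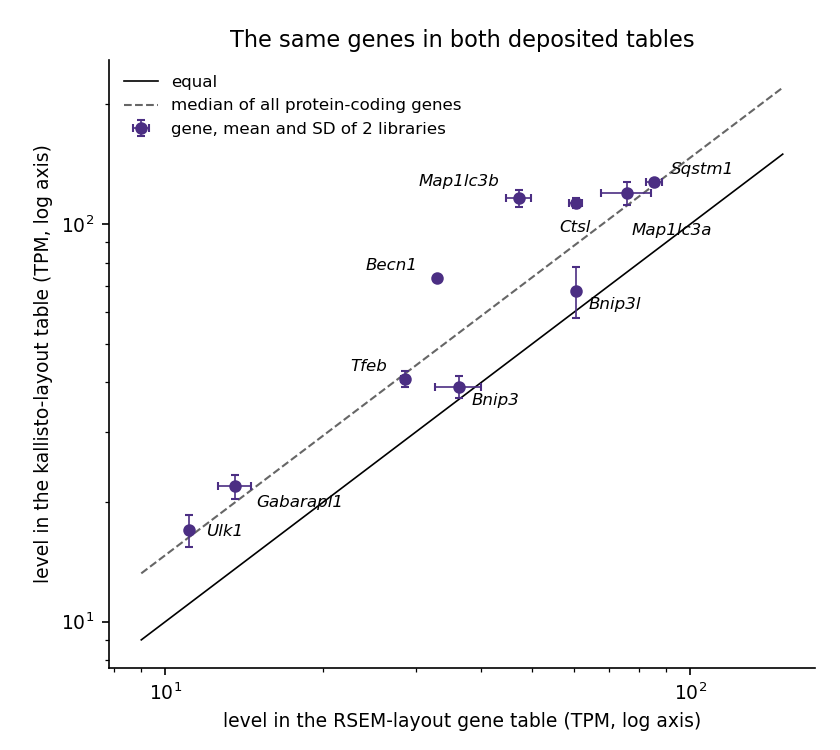
Mean TPM of each gene in the RSEM-layout gene table (x) and in the kallisto-layout table summed over transcripts (y), both on log axes, with SD over 2 libraries as whiskers. The dashed line is the median shift of 1.47-fold; Map1lc3b and Becn1 lie above it, and Bnip3 and Bnip3l near the line of equal levels.

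The 10 genes were set beside 101 other genes of the pathway in 11 lists. Of the 111 genes in all, 109 reached 1 TPM in both libraries, against 51.4% of all 22028 annotated protein-coding genes. Their ratio between the libraries passed 1.5-fold for 0 of the 108 whose mean count was at least 100, against the background of 1.71%. The median level was highest in the Atg8 family at 47.1 ± 2.63 TPM (5 genes). It was 20.7 ± 2.30 TPM for cargo receptors (12 genes), 20.1 ± 1.52 TPM for lysosomal proteases (12 genes), 17.6 ± 0.629 TPM for lysosomal membrane and acidification (14 genes) and 17.5 ± 0.187 TPM for mitophagy genes (12 genes). It was lowest in the enzymes of Atg8 conjugation at 6.70 ± 0.262 TPM (11 genes), the class III PI3-kinase complex at 7.08 ± 0.0141 TPM (9 genes) and the Tfeb family and its regulators at 7.40 ± 0.0247 TPM (12 genes). The Ulk1 complex (5 genes) stood at 12.0 ± 0.651 TPM, Atg9 and lipid transfer (9 genes) at 12.6 ± 0.629 TPM and fusion of the autophagosome (10 genes) at 10.4 ± 0.930 TPM.

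Early steps were led by genes outside the 10, apart from Becn1. In the Ulk1 complex, Rb1cc1, the large scaffold FIP200, had 28.5 and 23.4 TPM and Ulk2 had 20.3 and 20.8 TPM, while Atg101, a small subunit, had 11.6 and 12.5 TPM. In the list named after the class III PI3-kinase complex, Becn1 was followed by the membrane protein Vmp1 at 23.7 and 26.3 TPM. Rubcn, an inhibitor of the complex, came next at 14.3 and 12.7 TPM. Atg14, the subunit that directs the complex to autophagy, was at 3.24 and 2.69 TPM, with a log2 ratio between the libraries of 0.31 (0.08 to 0.56). Wipi1 (27.2 and 29.5 TPM) and Atg9a (21.7 and 22.0 TPM) led their list, Wdr45 had 8.33 and 9.44 TPM, and Atg9b was at 0.11 and 0.11 TPM, close to the floor. Of the conjugation enzymes, the proteases Atg4b (13.7 and 14.3 TPM) and Atg4d (13.6 and 14.3 TPM) were highest, and Atg16l2 had 2.30 and 1.60 TPM.

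Receptor and mitophagy genes were among the highest of the pathway. Pink1, the kinase that marks damaged mitochondria, had 102 and 119 TPM, above every one of the 10 genes, and the largest ratio between the libraries in its list at -0.31 (-0.35 to -0.26). Phb2, an inner-membrane receptor, had 87.4 and 95.3 TPM. Of the cargo receptors, Stbd1, which binds glycogen, had 70.6 and 55.5 TPM with a log2 ratio of 0.28 (0.21 to 0.34). Retreg1, a receptor for the endoplasmic reticulum, had 49.1 and 63.0 TPM with a log2 ratio of -0.45 (-0.52 to -0.39). Stbd1 was higher and Retreg1 lower in replicate 1, with intervals that left out 0, as for 35.7% of 10967 protein-coding genes. Genes named for the largest ratio of their list, as Retreg1, Pink1, Atg14, Ctsc and Atp6v1a were, tend to have such intervals through that choice.

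Lysosomal genes included Ctsd with 108 and 112 TPM, Ctsb with 91.2 and 91.2 TPM, the membrane protein Lamp1 with 99.4 and 102 TPM and Cd63 with 84.1 and 81.6 TPM. The largest ratios between the libraries in these lists were 0.24 (0.12 to 0.35) for Ctsc and 0.19 (0.08 to 0.30) for Atp6v1a, a subunit of the proton pump. In fusion, the small GTPase Rab7 had 79.7 and 80.3 TPM and the SNARE proteins Vamp8 and Stx17 had 25.9 and 25.3 TPM, and 13.3 and 11.3 TPM. Among regulators of Tfeb, Rragd, a GTPase of the mTORC1 pathway that is itself a known Tfeb target, had 39.9 and 32.2 TPM, and the transcription factor Foxo3 had 18.5 and 17.7 TPM.

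**Figure D5:**
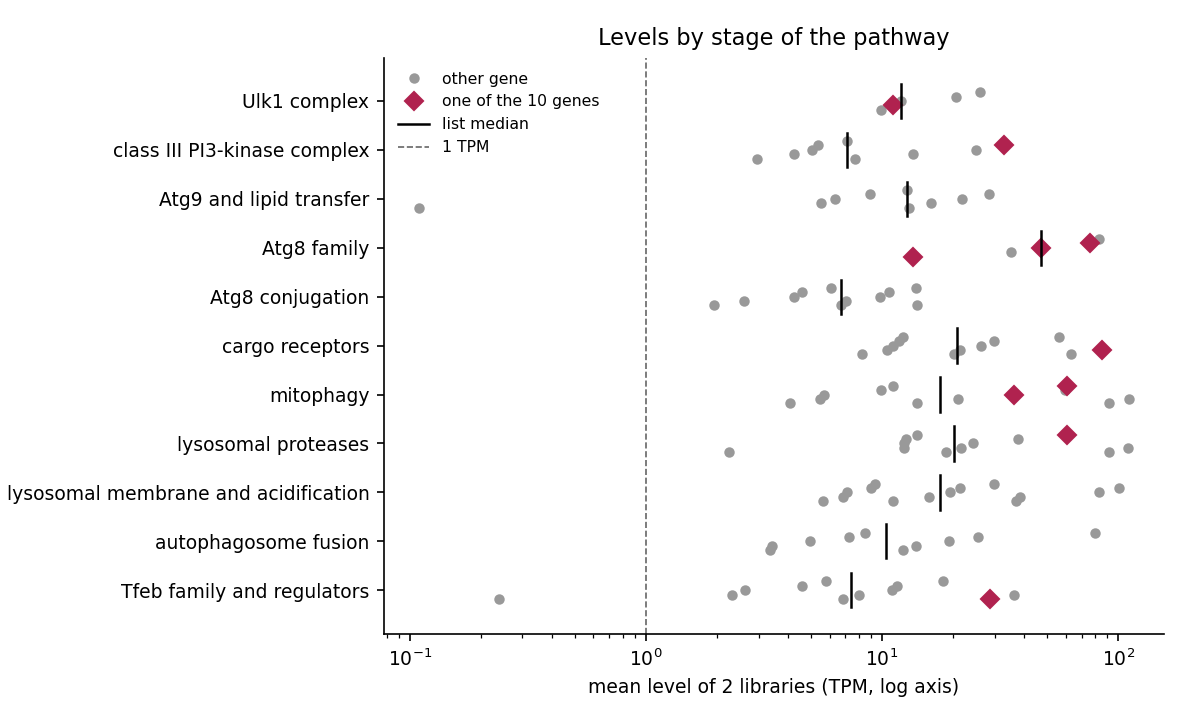
Mean TPM over 2 libraries of the genes in 11 lists, on a log axis. Diamonds are the 10 genes, grey points the other genes, black bars list medians and the dashed line 1 TPM; Atg9b and Tfec lie left of the line, and Sqstm1 is the highest of the cargo receptors.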

How the data were processed

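Total RNA libraries of gastrocnemius in 2 samples that the labels call biological replicates of 1 group were described. The deposited gene and transcript tables in the RSEM layout give TPM, expected counts and posterior mean counts for GENCODE M21 genes of mm10, per the file headers, and the deposited percent of a gene held by each transcript. A further deposited transcript table in the kallisto layout holds estimated counts and TPM. The aligner and program versions are, in the sources used here, not given. TPM is scaled over all listed features, so an abundant RNA of any kind lowers it for all other genes.

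Expected counts were rounded and scaled with TMM (edgeR 4.0.16, R 4.3.3) over endogenous genes averaging at least 10 counts, with a prior count of 0.5. DESeq2 1.42.0 gave alternative size factors. The scaling was tested on simulated data. Intervals of 95% are exact binomial and cover counting error only, as do floors of 3 counts, because reads lack molecular identifiers and are not independent molecules. Level ratios used a pseudocount of 0.1 TPM. Words of 31 bases were compared between annotated transcripts on the transcript strand. These words and the printed sequences are those of the reference genome. Differences from it in the alleles of the hybrid mice were not examined. Python 3.11.15 with scipy 1.17.1, pandas 2.3.3 and numpy 2.4.6 did the rest.

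The 10 genes and the lists were chosen with earlier results of these data known. Named are the 10 genes and, of each list, the 2 highest, any under 1 TPM in both libraries and the one with the largest ratio between libraries, though their ratios are not all printed. The result for 1 marker gene is not reported here.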

Additional observations from a re-analysis of the deposited data

How the results depend on the processing

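With 2 libraries of 1 group, leaving out a replicate removes every ratio between the libraries, so those ratios have no such value, and no test was made under any setting. Alternatives were DESeq2 size factors, library totals, spike-in totals, posterior mean counts, the kallisto-layout counts, a prior count of 5 and no filter on low counts. Under these the median log2 ratio of the 10 genes was between -0.16 and -0.11, and 0 of the 10 passed 1.5-fold. At a lower limit of 0.32 on the log2 scale, 1 gene passed, Gabarapl1, against 9.68% of the background genes. Among single genes the sign of Becn1 turned with library totals and spike-in totals (up to 0.04), and no other sign changed. The summed level of the 10 genes was 736 TPM in the kallisto-layout table and 1028 TPM when rescaled over protein-coding genes without mitochondrial genes, and their median level was 70.6 and 94.8 TPM. The rescaling multiplies every gene of a library alike, and for the kallisto-layout table the cause was not tested. The median share of the leading transcript was 71.0% in the kallisto-layout table, and the cause was not tested. Rescaling the tables to the same sum left 1 gene past 1.5-fold in place of 6, and centring them on the median gene, chosen after seeing the data, left 2 other genes. Without replicate 1 or without replicate 2 the summed level was 440 to 464 TPM. In 6 of 7 family ratios the first-named gene was lower in both libraries, under all alternatives run. Of the 111 pathway genes, 109 reached 1 TPM also in the kallisto-layout table, by posterior mean TPM and without either replicate, alternatives chosen after seeing the data.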
